A study of Mus musculus with 12 samples.

Results

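Type 1 diabetes is an autoimmune disease in which T cells destroy the insulin-producing beta cells of the pancreas, and many of the inherited variants linked to it lie in or near genes that T cells use. Regulatory T cells, a CD4 subset that holds immune responses back, are among the cells in which these genes act. The 10 susceptibility genes described here were chosen by name: the cytokine genes Il2, Il21 and Il10, the cytokine signalling genes Tyk2 and Stat4, the signal dampening genes Ptpn2, Ptpn22 and Sh2b3, and the endosomal genes Clec16a and Slc11a1. All 10 had a row in the table, 1 row each, out of 19505 genes measured.

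Each of 12 arrays held RNA from lymph node regulatory T cells of a single female mouse aged 4 to 8 weeks. Per the labels the sorted cells carried CD4 and CD25, lacked CD8 and were low for CD45RB. NOD mice, in which autoimmune diabetes arises without treatment, gave 6 arrays (replicates 1 to 6). Mice labelled NOD.Drak2-/-, a name that places the deletion on the NOD background, gave the other 6 (replicates 1 to 5 and 7). Drak2, encoded by Stk17b, is a serine/threonine kinase that dampens T cell receptor signalling. The labels name no cell type or promoter that limits the deletion, and the question put to the data is whether loss of Drak2 changes expression of the 10 genes in regulatory T cells.

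The values are log2 expression values, on which a difference of 1 is a doubling. Array medians over all genes lay between 5.22 and 5.34 in NOD (mean 5.27) and between 5.18 and 5.24 in NOD.Drak2-/- (mean 5.20). Stk17b itself was 10.25 ± 0.15 (SD, n = 6) in NOD.Drak2-/- and 10.52 ± 0.21 in NOD. The groups overlapped, and the position of its probes relative to the deletion is not known here, so it checks no array's label. Of the genes that mark the sort, Cd3e (11.03 in NOD), Cd4 (9.67), and the regulatory T cell genes Izumo1r (11.73), Ctla4 (9.81) and Ikzf2 (9.52) were bright. Cd8a (5.02) and Il2ra (4.82), which encodes CD25, were not above 5.87, the mean of the brightest of 23 background rows, whose probes match nothing in the genome. Cd8b1, the beta chain of CD8, was above it (7.27 in NOD and 7.45 in NOD.Drak2-/-) although the cells were sorted as lacking CD8. Foxp3, the lineage factor of regulatory T cells, had no row named here. In bulk RNA, fewer cells of a type and less RNA per cell cannot be told apart.

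Of the 10 genes, 6 had a mean above the brightest background row: Ptpn22, Ptpn2, Tyk2, Clec16a, Stat4 and Il10. Among all 19505 genes, 8370 had a mean above it in either genotype and 11135 did not. The other 4, Il2, Il21, Sh2b3 and Slc11a1, were not above it in either genotype, and none of their 48 values exceeded the brightest background row of its own array. NOD.Drak2-/- was higher than NOD for 9 of the 10 genes and lower for Sh2b3, but 0 of the 10 passed an adjusted p of 0.05 in limma, where 0.0205% of all genes passed. The median difference of the 10 genes was 0.12 (log2), beside -0.02 over all genes, of which 45.9% were positive. Centring each array on its median turned the share over all genes to 60.0% and left 9 of 10 genes higher, with a median of 0.19. With dim genes left out, 54.9% of genes were positive, with a median of 0.03. In that setting 6 of the 6 members still tested were higher, with a median of 0.10. The count was 7 of 10 with the mean of the myeloid markers as a covariate, and 8 of 10 with the replicate number as a block, with spiked-in hybridization controls as a covariate (added after the data were seen), and in the 3 fits lacking a single array in which Il10 turned (described with Il10). At an unadjusted p under 0.05 there was 1 of the 10 genes, Tyk2, beside 9.43% of all genes, and 0 of the 10 had groups that did not overlap, beside 0.513% of all genes.

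**Figure D1:**
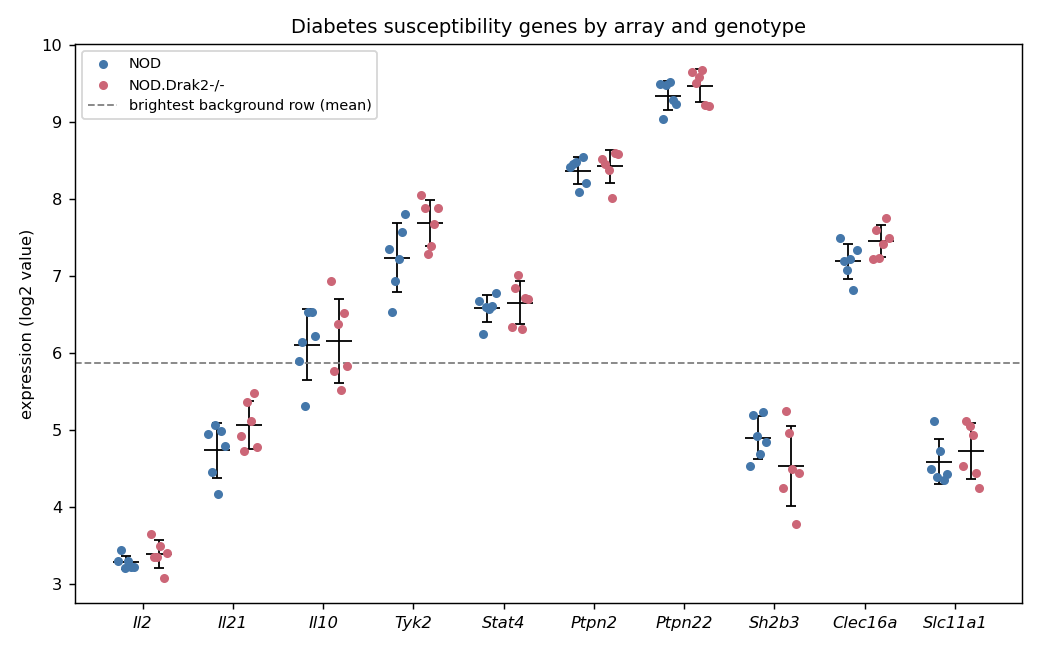
Log2 expression value (y axis) of each of the 10 genes (x axis) on every array, with NOD arrays in blue, NOD.Drak2-/- arrays in red, black bars for the mean and SD of 6 arrays, and a dashed line at 5.87 for the brightest background row. Levels of different genes come from different probes and are not comparable. Il2, Il21, Sh2b3 and Slc11a1 lie wholly below the line, Il10 straddles it, and the genotypes overlap for every gene.

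Il2 and Il21 encode T cell cytokines of the same family. Interleukin 2 is the growth factor on which regulatory T cells depend and which they take up rather than make, and interleukin 21 drives helper T cell and B cell responses. The 2 genes lie side by side on chromosome 3, with 0 measured genes between them, in an interval linked to diabetes in NOD mice. The windows around their starts are shown because both genes sat in the background range here and both are known targets of T cell receptor signals. Each runs from 250 bases before to 50 bases after the start (RefSeq, build GRCm38.p6, minus strand, chr3:37125905-37126204 for Il2 and chr3:37232587-37232886 for Il21), in lower case with matches to GGAAA, the core bound by the calcium-activated NFAT factors, in capitals on either strand.
Il2: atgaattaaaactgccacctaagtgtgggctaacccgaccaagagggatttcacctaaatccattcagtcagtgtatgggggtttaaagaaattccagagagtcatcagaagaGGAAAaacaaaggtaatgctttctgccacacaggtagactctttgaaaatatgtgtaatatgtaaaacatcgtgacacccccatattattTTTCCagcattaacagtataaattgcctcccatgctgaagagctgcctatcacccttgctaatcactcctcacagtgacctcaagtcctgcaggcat
Il21: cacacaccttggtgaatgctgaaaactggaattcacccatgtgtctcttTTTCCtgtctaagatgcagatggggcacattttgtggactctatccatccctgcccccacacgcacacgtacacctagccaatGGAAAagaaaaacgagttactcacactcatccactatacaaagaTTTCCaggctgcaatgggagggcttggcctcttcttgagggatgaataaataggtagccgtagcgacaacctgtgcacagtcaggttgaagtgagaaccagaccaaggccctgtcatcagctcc
The Il2 window held 2 matches to GGAAA, with first bases at -137 and -47 from the start, and the Il21 window held 3, at -201, -118 and -74. A core this short is common, and 61.3% of 32851 promoter windows of the same length held it. The AP-1 motif TGANTCA had 0 matches in both windows and is in 7.81% of all windows. These matches describe the reference sequence and are no evidence of binding.

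Il2 gave 3.31, 3.44, 3.20, 3.30, 3.22 and 3.23 in NOD replicates 1 to 6. In NOD.Drak2-/- replicates 1 to 5 and 7 it gave 3.65, 3.35, 3.36, 3.49, 3.09 and 3.41. The NOD values lay inside the NOD.Drak2-/- range, and all were in the background range. The log2 difference was 0.11 (95% interval -0.12 to 0.34, adjusted p = 0.758 in limma, exact permutation p = 0.236, two-sided), and it was 0.06 without NOD.Drak2-/- replicate 1 and 0.17 without NOD.Drak2-/- replicate 5. With every value in the background range, these data give no level for Il2 in either genotype.

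Il21 gave 4.95, 4.45, 5.07, 4.16, 4.99 and 4.79 in NOD. It gave 4.92, 4.73, 5.37, 5.12, 5.48 and 4.78 in NOD.Drak2-/-, where replicates 3, 4 and 5 were above every NOD array. The log2 difference was 0.33 (95% interval -0.04 to 0.70, adjusted p = 0.566 in limma, exact permutation p = 0.126). It was 0.21 without NOD replicate 4, the lowest array. None of the 12 values was above the brightest background row of its own array.

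Il10, which encodes the suppressive cytokine that regulatory T cells use to restrain inflammation, was the most variable of the 10 genes. NOD replicates 1 to 6 gave 5.90, 6.14, 5.32, 6.54, 6.54 and 6.23, and 5 of these 6 were above the background rows of their own array. NOD.Drak2-/- replicates 1 to 5 and 7 gave 6.94, 5.77, 6.38, 5.52, 6.52 and 5.83, of which 4 were above theirs. Within a genotype its SD was 0.50, larger than that of 95.4% of all genes, and the highest and lowest arrays were 1.62 apart. The genotype difference was 0.05 (95% interval -0.47 to 0.57, adjusted p = 0.96 in limma, exact permutation p = 0.874). Its sign turned without NOD replicate 3 (-0.11), without NOD.Drak2-/- replicate 1 (-0.11) and without NOD.Drak2-/- replicate 5 (-0.03), and with the myeloid covariate (-0.04).

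The receptors through which these cytokines act were mostly well above background. Il2ra was in the background range (4.82 and 5.00) although the cells were sorted for CD25, so a value there need not mean absence. Il2rb, the shared beta chain for interleukin 2, was 10.92 in NOD and 10.87 in NOD.Drak2-/-, and Il21r was 8.41 and 8.36. Il10rb was 9.14 and 9.12, while Il10ra, the ligand-binding chain for interleukin 10, was 7.58 and 7.94 (difference 0.36, adjusted p = 0.469 in limma). Il2rb, Il21r, Il10rb and Il10ra were picked for this account after their values were seen.

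Tyk2 is a Janus kinase bound to the receptors for type I interferons, interleukin 12, interleukin 23 and the interleukin 10 family. It showed the largest difference of the 6 genes above background. Of all 10 it was the largest in the main comparison, but with array weights, the myeloid covariate or the hybridization control covariate, and without NOD.Drak2-/- replicate 2, Il21 or Sh2b3 differed more, both in the background range. NOD replicates 1 to 6 gave 7.35, 6.54, 6.94, 7.23, 7.57 and 7.80, and NOD.Drak2-/- replicates 1 to 5 and 7 gave 8.05, 7.88, 7.29, 7.39, 7.67 and 7.88. All 6 NOD.Drak2-/- arrays were above the NOD mean, 3 of them above every NOD array, and NOD replicates 2, 3 and 4 were below every NOD.Drak2-/- array. The means were 7.24 ± 0.45 and 7.70 ± 0.30 (SD, n = 6 per genotype), a 1.37-fold difference (log2 difference 0.46, 95% interval 0.04 to 0.87). The adjusted p was 0.512 in limma and the exact permutation p was 0.0649, so Tyk2 did not pass.

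The spread of Tyk2 within a genotype (SD 0.38) was larger than that of 86.0% of all genes. Its difference was 0.32 without NOD replicate 2, the lowest array, and 0.57 without NOD replicate 6. Hybridization controls, RNAs added to each sample before hybridization, averaged 9.12 to 9.72 in NOD and 8.95 to 10.71 in NOD.Drak2-/-. Replicates 1, 2, 5 and 7 of NOD.Drak2-/- (10.24, 10.71, 10.46 and 9.87) were above every NOD array. With the mean of the controls as a covariate, an alternative added after the data were seen, the Tyk2 difference was 0.28 (unadjusted p = 0.187 in limma). In that fit 4.35% of all genes had an unadjusted p under 0.05, beside 9.43% in the main fit. The part of the controls in the difference was not tested further.

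Stat4, the transcription factor activated by interleukin 12 and needed for interferon gamma production by helper T cells, differed little. It gave 6.68, 6.25, 6.60, 6.58, 6.61 and 6.78 in NOD and 6.34, 6.84, 7.02, 6.32, 6.72 and 6.70 in NOD.Drak2-/-. Of the NOD.Drak2-/- arrays, 2 were above the highest NOD array and 0 below the lowest. Replicate 1 of NOD.Drak2-/- was not above the background rows of its own array, and the other 5 were. The log2 difference was 0.08 (95% interval -0.22 to 0.37, adjusted p = 0.876 in limma), and over the fits that left out 1 array it ran from 0.00 (without NOD.Drak2-/- replicate 3) to 0.14 (without NOD.Drak2-/- replicate 4). Leaving out replicate 2 (0.01) or 6 (0.11) of NOD, or replicate 1 (0.14) or 2 (0.04) of NOD.Drak2-/-, also moved it by over 1.5 times. Stat4 lies on chromosome 1 near the targeted gene, with 13 measured genes between it and Stk17b. Slc11a1 and Il10 are on the same chromosome, with 123 and 402 measured genes between each and Stk17b. Whether the genotypes differ in sequence around Stk17b beyond the deletion was not tested.

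Around Tyk2 and Stat4, a list of cytokine receptor chains, Janus kinases, STATs and their inhibitors had 26 measured genes. In NOD.Drak2-/- 18 were higher and 8 lower, with a median of 0.08. Over all genes 45.9% were higher, and 54.9% of those above background. In limma 0 passed in either direction, and at an unadjusted p under 0.05 there were 5 higher and 0 lower, beside 3.74% of all genes higher and 5.69% lower. Irf9, a transcription factor subunit that binds DNA in interferon responses, differed by 0.46 (8.31 and 8.76, adjusted p = 0.413), with 6 of 6 NOD.Drak2-/- arrays above the NOD mean. Il23r, the receptor chain specific to interleukin 23, differed by 0.79 (adjusted p = 0.436) and was in the background range in NOD (5.15). The other 3 were Il10ra (above), the Tyk2-binding receptor chain gene Il12rb1 (6.47 and 6.91, difference 0.44, adjusted p = 0.479) and Stat2 (8.21 and 8.61, difference 0.41, adjusted p = 0.504), chosen after their values were seen. Jak1 (8.28 and 8.15) and Jak2 (8.74 and 8.67), also chosen afterwards, had small negative differences of -0.13 and -0.06.

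**Figure D2:**
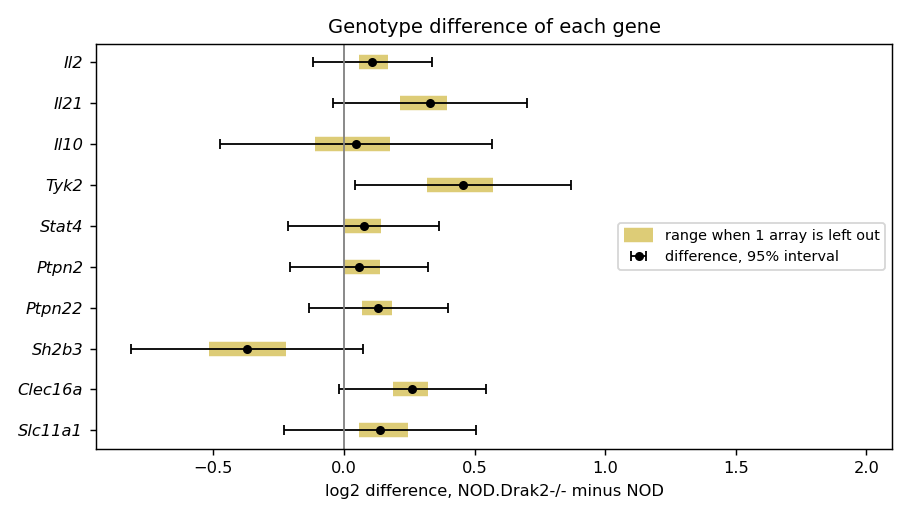
Log2 difference of NOD.Drak2-/- minus NOD (x axis) for each of the 10 genes (y axis), with the 95% interval from limma as a black bar and the range over the 12 fits that leave out 1 array as a yellow band. The interval of Tyk2 (0.04 to 0.87) is the only 1 of the 10 that excludes 0, and the band of Il10 (-0.11 to 0.18) crosses 0.

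Ptpn2 and Ptpn22 encode tyrosine phosphatases. Ptpn2 removes phosphate from Janus kinases, STATs and Src family kinases, and Ptpn22 acts on the kinases Lck and Zap70 below the T cell receptor. Both were well above background on all 12 arrays. They had the smallest spread among the 6 genes with signal, with SDs within a genotype of 0.20 and 0.20.

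Ptpn2 gave 8.43, 8.46, 8.49, 8.10, 8.54 and 8.21 in NOD. It gave 8.52, 8.46, 8.38, 8.01, 8.60 and 8.59 in NOD.Drak2-/-, where replicate 4 stood below the other 5. The log2 difference was 0.06 (95% interval -0.21 to 0.32, adjusted p = 0.90 in limma, exact permutation p = 0.645). Its sign turned with the replicate block (-0.0081), the myeloid covariate (-0.0244) and the hybridization control covariate (-0.0193). It was 0.0019 without NOD replicate 4 and 0.14 without NOD.Drak2-/- replicate 4, and dropping replicate 5 (0.09) or 6 (0.02) of NOD, or replicate 5 (0.02) or 7 (0.02) of NOD.Drak2-/-, moved it by over 1.5 times too. The upper end of the interval corresponds to a 1.25-fold rise and the lower end to 0.866 of the NOD level.

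Ptpn22 gave 9.49, 9.04, 9.49, 9.52, 9.29 and 9.24 in NOD. It gave 9.65, 9.51, 9.59, 9.68, 9.22 and 9.21 in NOD.Drak2-/-. Replicates 1, 3 and 4 of NOD.Drak2-/- were above every NOD array, and replicates 5 and 7 were below the NOD mean. The genotypes differed by 0.13 on the log2 scale (95% interval -0.13 to 0.40, adjusted p = 0.744 in limma, exact permutation p = 0.262), a 1.10-fold difference whose interval reaches 1.32-fold. Without NOD replicate 2, the lowest array, the log2 difference was 0.07.

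Sh2b3 encodes Lnk, an adaptor that restrains Janus kinase signalling from cytokine receptors in blood cells. It was the gene of the 10 that was lower in NOD.Drak2-/-, and all its values were in the background range. NOD gave 4.53, 5.19, 4.93, 4.69, 5.23 and 4.85, and NOD.Drak2-/- gave 4.25, 5.25, 4.97, 4.49, 3.78 and 4.45. In NOD.Drak2-/- 4 arrays were below every NOD array and 1 was above every NOD array. Its log2 difference was -0.37 (95% interval -0.81 to 0.07, adjusted p = 0.586 in limma, exact permutation p = 0.154). It was -0.22 without NOD.Drak2-/- replicate 5, the lowest array, and -0.52 without replicate 2, the highest.

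A list of kinases, phosphatases and adaptors that work with these 3 genes had 23 measured genes, 18 higher and 5 lower in NOD.Drak2-/-, with a median of 0.10. In limma 0 passed, and 1 higher and 0 lower had an unadjusted p under 0.05, beside 3.74% and 5.69% of all genes. Ptpn7, a phosphatase of lymphocytes that acts on MAP kinases, differed by 0.38 (7.54 and 7.93, adjusted p = 0.517), and Lcp2, the adaptor SLP-76, by 0.32 (8.50 and 8.82, adjusted p = 0.567). Csk, the kinase that binds Ptpn22, was 10.25 and 10.21, and Zap70 was 9.69 and 9.72, both chosen after their values were seen.

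Clec16a encodes an endosomal protein that regulates mitophagy through the ubiquitin ligase Nrdp1. It was the second most different of the genes with signal. NOD gave 7.49, 7.20, 7.09, 7.22, 6.82 and 7.34, and NOD.Drak2-/- gave 7.22, 7.61, 7.23, 7.42, 7.76 and 7.49. All 6 NOD.Drak2-/- arrays were above the NOD mean and 4 NOD arrays were below every NOD.Drak2-/- array, while NOD replicate 1 was above 4 of the 6. The means were 7.19 ± 0.23 and 7.45 ± 0.21 (SD, n = 6 per genotype), a 1.20-fold difference (log2 difference 0.26, 95% interval -0.02 to 0.54, adjusted p = 0.544 in limma, exact permutation p = 0.0606). With the hybridization controls as a covariate the difference was 0.17.

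Slc11a1 encodes Nramp1, a divalent metal transporter of the phagosome that is known from macrophages. NOD gave 4.50, 5.12, 4.40, 4.73, 4.36 and 4.43, and NOD.Drak2-/- gave 4.54, 5.12, 5.06, 4.94, 4.44 and 4.25. The ranges of the genotypes overlapped, and all values were in the background range. A log2 difference of 0.14 (95% interval -0.23 to 0.50, adjusted p = 0.816 in limma, exact permutation p = 0.47) was found. It was 0.06 without NOD.Drak2-/- replicate 2, 0.07 without NOD.Drak2-/- replicate 3, 0.09 without NOD replicate 5, 0.23 without NOD.Drak2-/- replicate 7 and 0.24 without NOD replicate 2. Of 17 measured myeloid and dendritic markers 0 had a mean above the brightest background row. Their mean per array ran from 3.86 to 4.21 in NOD and from 4.00 to 4.38 in NOD.Drak2-/-. At an unadjusted p under 0.05 in limma 1 was higher and 1 lower, beside 3.74% and 5.69% of all genes. These were Csf1r (difference 0.55) and Siglech (-0.27), chosen after their values were seen.

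The list of endosome, mitophagy and iron genes had 20 measured members, 13 higher and 7 lower, with a median of 0.08. In limma 0 passed, with 2 higher and 0 lower at an unadjusted p under 0.05, beside 3.74% and 5.69% of all genes. These were Cybb, the membrane subunit of the phagocyte oxidase (difference 0.76, 6.31 and 7.07, adjusted p = 0.506), and Rnf41, which encodes Nrdp1, the partner of Clec16a (difference 0.34, 7.41 and 7.74, adjusted p = 0.512). For Rnf41 5 of 6 NOD.Drak2-/- arrays were above the NOD mean.

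**Figure D3:**
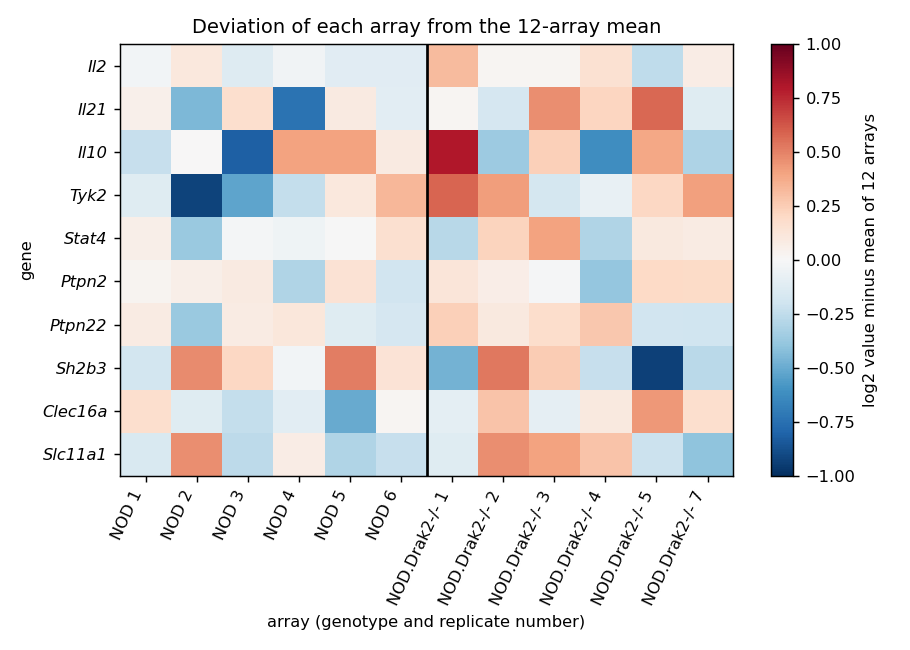
Deviation of each array (x axis, NOD left of the line and NOD.Drak2-/- right of it) from the mean of the 12 arrays for each of the 10 genes (y axis), in log2 units with red above and blue below the mean. The strongest colours in NOD are Tyk2 in replicate 2 (-0.93), Il10 in replicate 3 (-0.82) and Il21 in replicate 4 (-0.74), and in NOD.Drak2-/- they are Sh2b3 in replicate 5 (-0.93) and Il10 in replicate 1 (0.80).

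Further genes tied to the 10 by position or function were described in the same way. Of 52 measured neighbours of the 10 genes along the chromosomes, 30 were higher and 22 lower, with a median of 0.02. In limma 0 passed, with 4 higher and 0 lower at an unadjusted p under 0.05, where all genes gave 3.74% and 5.69%. Aldh2, the mitochondrial aldehyde dehydrogenase gene near Sh2b3, differed by 0.45 in the background range (adjusted p = 0.508), and Cep192, a centrosome gene near Ptpn2, by 0.34 (adjusted p = 0.512).

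Of 53 measured genes at other diabetes loci, 26 were higher and 27 lower, with a median of -0.01, and 0 passed in limma. At an unadjusted p under 0.05 there were 4 higher and 2 lower, beside 3.74% and 5.69% of all genes (9.43% in either direction). The viral RNA sensor gene Ifih1 differed by 0.76 (6.46 and 7.22, adjusted p = 0.211) and the interleukin 7 receptor gene Il7r by 0.54 (8.63 and 9.17, adjusted p = 0.469). Both were above the NOD mean in 6 of 6 NOD.Drak2-/- arrays.

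Of 26 measured regulators of cytokine genes and cytokines often made with Il2, Il21 and Il10, 18 were higher and 8 lower, with a median of 0.07, and 0 passed in limma. At an unadjusted p under 0.05 there were 6 higher and 0 lower, beside 3.74% and 5.69% of all genes. The cytokine genes Il4 (difference 0.45, adjusted p = 0.444) and Il17f (0.57, adjusted p = 0.469) were in the background range. Batf, an AP-1 family factor of effector T cells, differed by 0.44 (9.07 and 9.51, adjusted p = 0.485), and Maf, a factor that drives Il10 and Il21, by 0.38 (6.64 and 7.02, adjusted p = 0.535), both chosen after their values were seen. Maf was not 1 of the 6 (unadjusted p = 0.0544 in limma). The others of the 6 were Nfatc1 (difference 0.45), Fos (0.44) and Cd40lg (0.31). Other regulators on the list differed less, with Jun at 0.07, Irf4 at 0.06, Bcl6 at -0.04 and Rel at -0.18. These genes were also chosen after their values were seen. The cytokine gene Ifng, also chosen afterwards, was lower by a difference of -0.57 in the background range (5.80 and 5.23, adjusted p = 0.551).

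**Figure D4:**
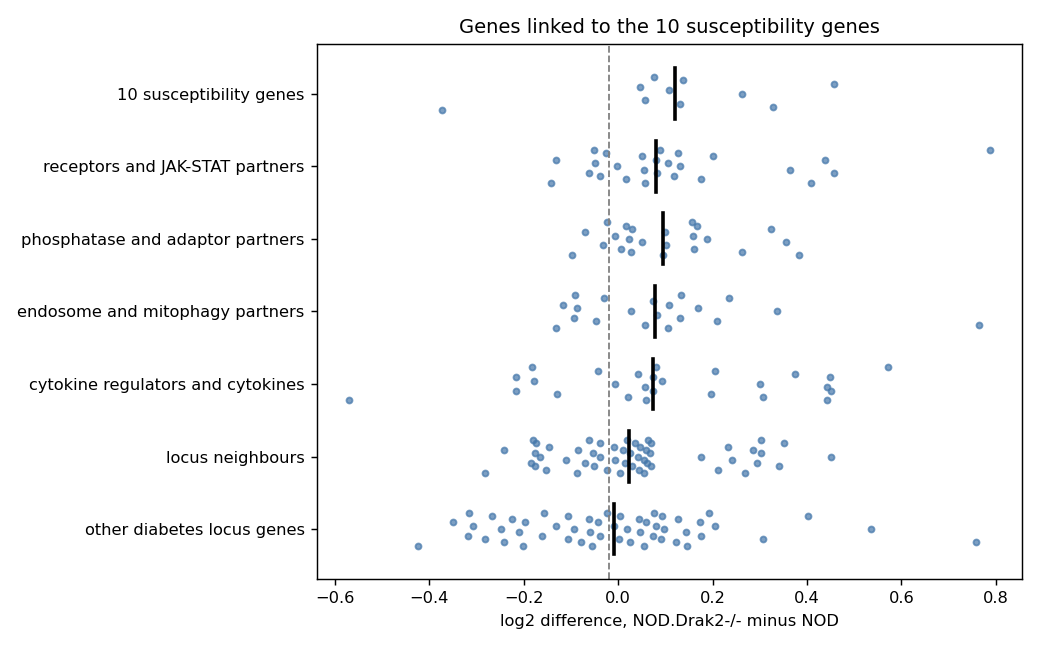
Log2 difference of NOD.Drak2-/- minus NOD (x axis) for each measured gene of the 10 susceptibility genes and of 6 linked lists (y axis, each dot 1 gene), with a black bar at each list's median and a dashed line at the median of all genes (-0.02). The medians run from -0.01 for other diabetes locus genes to 0.12 for the 10 genes, and single genes run from -0.57 to 0.79. Most genes of each list were above background, and all genes above background had a median of 0.03.

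To see which genes moved with each of the 6 genes that had signal, values were set against those of 8369 other genes above background over the 12 arrays, after subtracting each genotype's mean. Tyk2 was most like Bcl10, an adaptor that links antigen receptors to NF-kB (Pearson r = 0.94, Spearman rho = 0.93), and Nop16, a nucleolar protein gene (r = 0.92, rho = 0.90). Il10 was most like Cygb (r = 0.90, rho = 0.87) and Spty2d1 (r = 0.90, rho = 0.91). Clec16a was most like Zfp354c (r = 0.89, rho = 0.79) and Rfx2 (r = 0.86, rho = 0.84). Ptpn2 was most like Mef2a (r = 0.89, rho = 0.78) and Smarce1 (r = 0.86, rho = 0.60), and Ptpn22 was most like Gm14308 (r = 0.87, rho = 0.88) and Rps16 (r = 0.86, rho = 0.78). Stat4 was most like Nrros (r = 0.89, rho = 0.76) and Jarid2 (r = 0.86, rho = 0.78). Leaving out the 2 arrays farthest from the median of the matched gene gave r between 0.64 and 0.95. Each is the highest of 8369 correlations over 12 arrays that share normalization, so the values describe these arrays and carry no test.

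Markers of other cells that could reach the gate were mostly in the background range. Of 11 B cell markers 1 was above it, Cd79b (5.89 in NOD and 6.37 in NOD.Drak2-/-), and the mean of the list ran from 4.60 to 5.02 and from 4.58 to 5.43. Of 10 cytotoxic markers 4 were above it, the brightest being Nkg7 (8.20 and 7.53), and the list mean ran from 4.69 to 4.99 and from 4.66 to 5.19. Follicular and effector helper markers, genes that activated T cells can express, were above it for 7 of 8 genes, with list means of 6.58 to 6.83 and 6.46 to 6.90. Of 6 plasma cell markers 2 were above it, with list means of 4.98 to 5.18 and 4.96 to 5.14, and of 9 stromal and endothelial markers 3, with list means of 4.95 to 5.23 and 4.87 to 5.09. Genes induced by stress and cell dissociation averaged 7.90 to 8.21 in NOD and 7.77 to 8.40 in NOD.Drak2-/-. List means overlapped between genotypes for each of these 6 lists, and 0 of their genes passed in limma. A list mean can hide opposite shifts of single markers. At an unadjusted p under 0.05 in limma, B cell markers had 1 higher and 2 lower, and cytotoxic markers 2 and 1. Helper markers had 1 and 1, plasma cell 0 and 1, stress 1 and 0, and stromal 0 and 0. Over all genes 3.74% were higher and 5.69% lower at that threshold, 9.43% in either direction. Nkg7 differed by -0.67, Cxcr5 by 0.65 and Cd79b by 0.48, and in the background range Gzma by 0.60 and Pax5 by -0.54. These genes were chosen after their values were seen. The part of the 6 lists in the values of the 10 genes was not tested beyond the B cell covariate. The myeloid covariate came from a further list. In these 2 lists 10 of 11 B cell and 17 of 17 myeloid markers were not above background. Their means may therefore not follow the content of such cells.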

How the data were processed

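Expression was measured on 12 single-colour arrays, 6 per genotype. Per the labels' protocols, 125 ng of RNA from sorted cells was made into labelled cDNA with a whole-transcript kit. The authors' deposited table holds log2 values, made with oligo and RMA per the submitters' processing notes. Their versions and the genome build were not given in the sources used here. RMA normalizes arrays to a common distribution, so a change shared by most genes would not be seen. Precision is limited by how many arrays there are.

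Of 29129 rows, 19572 had exactly 1 symbol in the platform annotation, and the brightest row per gene was kept (19505 genes). NOD.Drak2-/- was compared with NOD in limma 3.58.1 (R 4.3.3; lmFit, eBayes, no covariate), with Benjamini-Hochberg adjustment over all genes at 0.05. An exact permutation test (two-sided, 924 regroupings) stands beside it, whose smallest possible p is 0.00216. The step was tested on simulated data. All 10 members, Stk17b and, in each linked list, those that passed (where none did, the 2 of smallest p) were named. For each member with signal, the 2 genes of highest Pearson r were named too. Other names are marked as chosen afterwards. Marker and gate genes are given as levels, with differences only for markers marked as chosen afterwards. The members and lists were chosen with earlier results of these data known. Promoter windows are from RefSeq (GRCm38.p6), whose gene table also gave gene order. Alternatives were array centring, a dim-gene filter, the mean of a gene's rows, other variance models, array weights, a replicate block, marker or control covariates, and each array left out.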

Additional observations from a re-analysis of the deposited data

Results flagged for a closer look

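Among the 10 genes and Stk17b, each genotype's 6 values were screened for an array set apart from the rest, 22 groups in all, of which chance flags about 1 in 20. Ptpn2 in NOD.Drak2-/- replicate 4 (8.01) lay below the other 5 by 0.636 of the whole range, and its difference was 0.14 without that array. Stk17b in NOD.Drak2-/- replicate 2 (9.97) lay below the other 5 by 0.628 of the range, and its difference went from -0.27 to -0.21 without it. The critical value for 6 arrays is 0.625.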

How the results depend on the processing

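Under every alternative run, 0 of the 10 genes passed. Tyk2, Clec16a, Ptpn22, Stat4, Slc11a1, Il2 and Il21 stayed higher and Sh2b3 lower in NOD.Drak2-/- wherever they were tested; with dim genes left out, Il2, Il21, Sh2b3 and Slc11a1 were not tested. Ptpn2 turned to -0.0081 with the replicate block, -0.0244 with the myeloid covariate and -0.0193 with the hybridization control covariate, and Il10 to -0.0405 with the myeloid covariate. With 1 array left out, Il10 ran from -0.11 to 0.18 and Ptpn2 from 0.0019 to 0.14. The correlations with the most similar genes ran from 0.70 to 0.96 with 1 array left out or with median centring. An unadjusted p under 0.05 was met by Tyk2 in 7 of the 12 fits that left out 1 array, by Clec16a in 3, by Il21 in 2 and by Sh2b3 in 2. In those fits 6.91% to 13% of all genes met it. Among the other alternatives, Tyk2 did not meet it with the ordinary equal-variance test, array weights, or the myeloid or hybridization control covariate. Il21 met it with median centring, array weights and the replicate block. Clec16a did so with median centring and the myeloid covariate, and Sh2b3 with the B cell covariate. Over all genes the count past an adjusted p of 0.05 was 4. It was 0 with the ordinary equal-variance test and with the replicate block, where 1722 and 1519 genes had an unadjusted p under 0.05. The count was 1 with the B cell or the myeloid covariate, and 1 to 2 with 1 array left out. With the hybridization control covariate (chosen after seeing the data) it was 2. There 849 genes had an unadjusted p under 0.05, beside 1840 in the main fit. The replicate block used the 5 numbers both genotypes share; same-numbered arrays deviated from their group means with correlations of -0.18 to 0.09, so the numbers were not taken to pair the mice, and the block changed no call among the 10 genes. For the 4 genes in the background range, dim signal limits any statement on level.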
